A study of Mus musculus with 20 samples.

Results

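Peroxisomes are small organelles bounded by a single membrane, and 33 genes for their assembly and for their enzymes and transporters were examined in 2 tissues of staggerer and wild-type (WT) mice, the liver and white fat (WAT). The genes were chosen by name from the annotation in the scanner files: 16 names beginning with Pex and a digit, and 17 listed enzymes and transporters. They were measured by 54 of the 41174 probes of the array and are 33 of its 28785 genes. The choice by name also took in Pex5l, which codes for a protein of neurons, and Abcd4, a transporter found in lysosomes. The list was drawn up with earlier results of these same arrays known, including genotype differences of these genes, so the counts, medians and directions given for it are descriptions and no test of the list as a whole is given. All 33 genes passed the filter on dim probes in both tissues, under which a probe had to be well above background on 4 or more of the 10 arrays of a tissue.

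The 4 groups were liver from staggerer mice, liver from WT mice, WAT from staggerer mice and WAT from WT mice, with 5 arrays each. Staggerer mice (RORasg/sg) carry a natural deletion on both copies of Rora, which codes for the nuclear receptor RORα, so the gene is affected in every cell type. All mice were male C57BL/6 animals of 5 months, kept on a 35% fat diet over 6 weeks, so every difference was measured on that diet alone. Total RNA was hybridised in 1 colour (Cy3) to Agilent mouse genome arrays, with 5 mice of each genotype per the series' design. The labels do not state the fat depot, nor whether a liver array and a WAT array came from the same mouse.

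As background, peroxisomes shorten fatty acids that mitochondria handle poorly, such as very long chain, branched and dicarboxylic acids, and they shorten bile acid intermediates and make the first precursors of ether lipids. Peroxins, the Pex proteins, build the organelle: some insert membrane proteins, some import enzymes from the cytosol, and the Pex11 proteins elongate the membrane before it divides. In rodent liver many of these genes are targets of PPARα, a nuclear receptor that fatty acids activate, and liver and kidney are the tissues richest in peroxisomes.

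Levels are given as log2 of the deposited intensity, less the log2 of that array's 75th percentile, so that 0 is the intensity of that percentile. The 5 values of a group stand in the order of replicates 1 to 5, and levels of different probes are not set against each other. A difference is staggerer minus WT on the log2 scale with its standard error (SE), and a gene changed when the limma p adjusted by Benjamini-Hochberg over all genes tested was under 0.05. The share of probes well above background was 57.3% to 58.7% on staggerer liver arrays, 56.5% to 62.4% on WT liver arrays, 71.9% to 80.3% on staggerer WAT arrays and 75.3% to 81.1% on WT WAT arrays. Rora itself averaged -0.83 ± 0.24 in staggerer liver and 2.05 ± 0.12 in WT liver (SD, n = 5 each), and -2.67 ± 0.31 in staggerer WAT and 0.05 ± 0.13 in WT WAT (SD, n = 5 each), a difference of -2.88 (SE 0.12, adjusted p = 2.7e-06) in liver and -2.72 (SE 0.15, adjusted p = 8.74e-05) in WAT. Whether its probe lies in the deleted stretch was not tested. No slide held both tissues, and of the 3 liver slides 1 held both genotypes, whereas each of the 3 WAT slides did.

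Among the peroxisomal genes of staggerer mice, most changes were decreases in liver and increases in WAT. In liver 7 of the 33 fell and 1 rose, led by Pex11a, which was 2.11-fold lower. In WAT 8 rose, led by Phyh, Pex11a, Pex6 and Crat, which were 1.61-fold to 1.83-fold higher, and 1 fell. The 1 that fell was Pex5l, which the scanner files name Pex2. Pex11a and Pex11c fell in liver and rose in WAT. The called members made up 24.2% of the 33 in liver, where 16.3% of the 17290 genes tested were called, and 27.3% in WAT, where 23.8% of 22286 were. By direction, 7.06% of all genes fell and 9.27% rose in liver, and 14.4% rose and 9.45% fell in WAT. The median difference over the 33 genes was -0.16 in liver, against 0.05 over all genes tested there, and 0.24 in WAT, against 0.09 over all genes. By sign alone, 21 members were lower in liver and higher in WAT, 8 were higher in both, 2 were lower in both and 2 were higher in liver and lower in WAT. In all, 15 members were called in at least 1 tissue and 18 in neither. Over all genes tested, 7526 differences were negative and 9764 positive in liver, and 8985 were negative and 13301 positive in WAT. Counts over both tissues at once were not made for all genes, so those of the members have no share beside them.

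The counts moved with single arrays, with slide and with the background correction, while the called members kept their sign in every fit that was run. Each of these fits used the same arrays or part of them, so a kept sign is no separate support for the calls. The share of all genes called is not given for fits with an array left out, with normexp or scaled to the median. A move of the member counts there cannot be told from a move over all genes. In liver the 8 calls became 0 with slide as a fixed block (5 at an unadjusted limma p under 0.05), 1 without WT replicate 4, 3 without WT replicate 3 and 5 without staggerer replicate 5, and Pex11a was called in each of the 10 fits that left out 1 liver array. In WAT the 9 calls became 4 without staggerer replicate 2, 5 without staggerer replicate 3, 5 without WT replicate 1 and 15 without staggerer replicate 4, which correlated least with the rest of its group. Pex6, Phyh, Crat and Scp2 were called in each of the 10 fits that left out 1 WAT array. With normexp background correction no member was called in WAT (8 at an unadjusted p under 0.05), the median over the members was 0.18 and that over all genes was 0.41, so the median of the members was then below that of all genes. Scaled to the array median, 8 members fell and 0 rose in liver, and 4 rose and 1 fell in WAT.

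**Figure D1:**
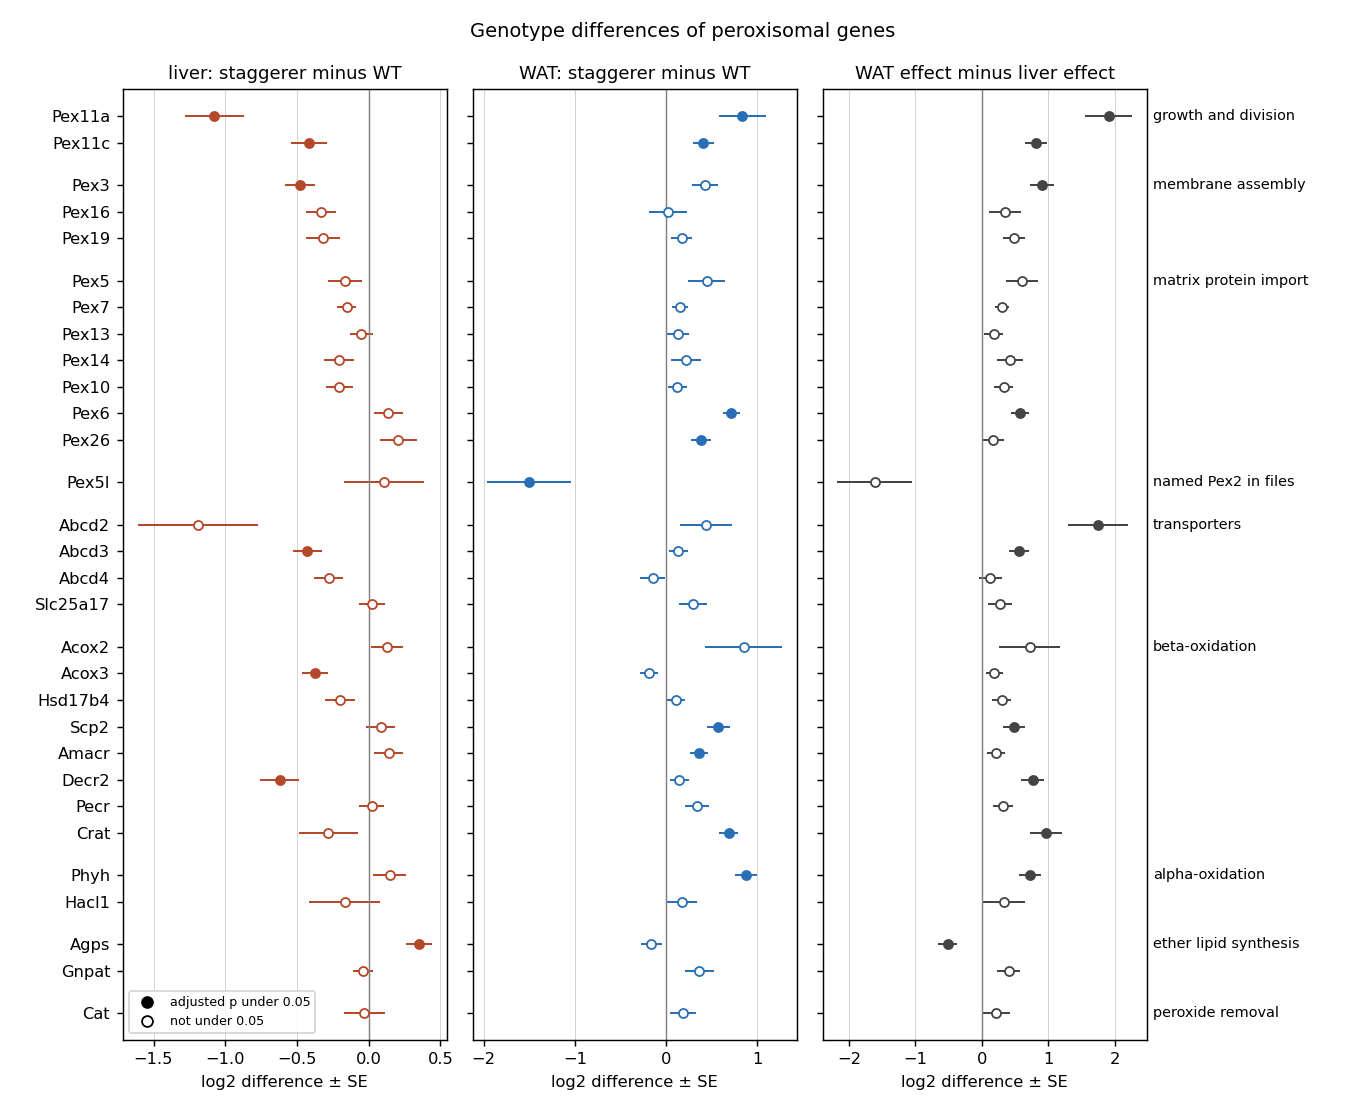
Log2 difference of 30 of the 33 genes (points) with its SE (bars), grouped by role: staggerer minus WT in liver (left), staggerer minus WT in WAT (middle) and the WAT difference minus the liver difference (right). Filled points passed the threshold of 0.05 on the adjusted p, open points did not; the 6 called liver decreases drawn lie left of 0 and the 8 called WAT increases right of it.

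Other cell types moved with genotype in both tissues, and in bulk RNA fewer cells of a type and less RNA per cell cannot be told apart. In liver, 4 of 13 measured hepatocyte markers rose, and their summed level ran from 3630 to 4080 in staggerer liver and from 2580 to 3460 in WT liver (in units of the 75th percentile). Of 13 macrophage markers 5 rose in liver, with sums of 143 to 190 in staggerer liver and 84.3 to 154 in WT liver, and 4 of 10 endothelial markers rose, with sums of 20.6 to 23.7 in staggerer liver and 14.7 to 19.7 in WT liver. Of 8 adipocyte markers measured in liver 1 rose and 2 fell, and the defining ones Lep and Plin1 were well above background on no liver array and Adipoq on 1. In WAT, 6 of 13 adipocyte markers rose and 1 fell, with sums of 1390 to 1940 in staggerer WAT and 829 to 1320 in WT WAT. Of 14 macrophage markers 10 fell in WAT, with sums of 166 to 224 in staggerer WAT and 226 to 354 in WT WAT. Of the 12 hepatocyte markers measured in WAT 2 rose and 1 fell, and 1 of 10 endothelial markers rose. Of the lymphocyte markers 1 of 7 rose in liver and 0 of 8 passed the threshold in WAT. The part of these shifts in the differences of the peroxisomal genes was not tested.

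The Pex11 genes, whose proteins elongate and divide peroxisomes, held the widest opposite change. Pex11a encodes the form that PPARα activators raise in rodent liver, and its probe lies on chromosome 7 from 75606703 to 75606762 of build mm7. Its level in liver was 4.66, 4.35, 4.78, 4.63 and 5.28 on staggerer liver arrays, against 5.17, 6.08, 6.05, 5.96 and 5.81 on WT liver arrays. The 4 lowest liver values were all staggerer arrays, and only staggerer replicate 5 lay above the lowest WT array. The mean was 4.74 ± 0.34 on staggerer liver arrays and 5.81 ± 0.38 on WT liver arrays (SD, n = 5 each), a difference of -1.08 (SE 0.21, adjusted p = 0.0128). In WAT the level was 4.38, 4.31, 4.48, 5.60 and 4.22 on staggerer WAT arrays, against 3.69, 3.35, 4.11, 3.94 and 3.73 on WT WAT arrays. Every staggerer WAT array was above every WT WAT array, and staggerer replicate 4 stood far above the other 4. The WAT difference was 0.84 (SE 0.26, adjusted p = 0.0429), and leaving out staggerer replicate 4 gave 0.59 (adjusted p = 0.0172). Of the 10 fits that each left out 1 WAT array, 3 called Pex11a. Pex11a stands between Plin1 and Wdr93 in the RefSeq order of GRCm38.p6. Plin1 codes for the coat protein of fat droplets in adipocytes, and no values are given for Wdr93. Plin1 averaged 7.03 in staggerer WAT and 6.36 in WT WAT, a difference of 0.66 (SE 0.14, adjusted p = 0.00773), and was well above background on no liver array.

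Pex11c is the name in the scanner files for the gene that RefSeq calls Pex11g, whose protein acts with the other Pex11 proteins in division. Its liver level was 5.86, 5.39, 5.24, 5.57 and 5.67 on staggerer liver arrays, against 5.89, 5.78, 6.16, 5.96 and 6.02 on WT liver arrays. The groups overlapped only through staggerer replicate 1, and the difference was -0.42 (SE 0.12, adjusted p = 0.0445). This call was kept in 1 of the 10 fits that left out 1 liver array. In WAT the level was 2.55, 2.70, 2.71, 2.97 and 2.48 on staggerer WAT arrays, against 2.31, 2.16, 2.43, 2.35 and 2.14 on WT WAT arrays. Every staggerer WAT array was above every WT WAT array, and the difference was 0.41 (SE 0.11, adjusted p = 0.027), called in 5 of the 10 fits that left out 1 WAT array. Its 3 other probes differed in liver by -0.05, -0.53 and -0.34, of which -0.53 was called (adjusted p = 0.0483 over all probes). In WAT the same 3 probes, in the same order, differed by 0.56, 0.31 and -0.20, of which 0.56 was called (adjusted p = 0.00782 over all probes), so 1 went the other way. The probe that differed by 0.56 lies on the plus strand in mm7, opposite to the other Pex11c probes, and its accession has no RefSeq gene. Of the 3, only the probe that differed by -0.20 has an accession that RefSeq gives to Pex11g.

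The promoter sequences of these genes are shown because the 2 members called in both tissues belong to one family and because ROR and PPAR proteins bind related letters. Of the 33 genes, 23 matched a RefSeq window of the 250 bases before the gene start (GRCm38.p6). The 4 motifs searched on both strands were AGGTCA, the core that many nuclear receptors bind, TAGGTCA and TGGGTCA, forms of that core with the T that precedes it in ROR elements, and AGGTCANAGGTCA, the direct repeat that PPAR and RXR bind together. TAGGTCA contains AGGTCA. The sequences below run 5′ to 3′ on the strand of the gene and end 1 base before its start, with the matched letters in capitals.

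Pex11a, chr7:79743132-79743381, minus strand: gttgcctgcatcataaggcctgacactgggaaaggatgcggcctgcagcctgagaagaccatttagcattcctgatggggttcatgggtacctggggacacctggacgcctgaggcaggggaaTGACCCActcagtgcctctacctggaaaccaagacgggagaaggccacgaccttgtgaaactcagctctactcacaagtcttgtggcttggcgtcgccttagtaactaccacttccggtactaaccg

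Pex11g (Pex11c in the files), chr8:3467649-3467898, minus strand: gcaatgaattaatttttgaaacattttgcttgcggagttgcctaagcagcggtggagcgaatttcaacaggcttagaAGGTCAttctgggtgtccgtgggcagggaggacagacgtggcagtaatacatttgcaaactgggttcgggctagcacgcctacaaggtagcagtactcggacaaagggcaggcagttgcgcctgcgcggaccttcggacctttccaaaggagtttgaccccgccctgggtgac

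Scp2, chr4:108118548-108118797, minus strand: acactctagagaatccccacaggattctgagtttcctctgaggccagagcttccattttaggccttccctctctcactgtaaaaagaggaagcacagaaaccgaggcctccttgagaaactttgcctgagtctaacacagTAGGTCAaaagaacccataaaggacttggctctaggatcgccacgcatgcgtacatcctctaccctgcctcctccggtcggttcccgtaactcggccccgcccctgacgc

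Cat, chr2:103485154-103485403, minus strand: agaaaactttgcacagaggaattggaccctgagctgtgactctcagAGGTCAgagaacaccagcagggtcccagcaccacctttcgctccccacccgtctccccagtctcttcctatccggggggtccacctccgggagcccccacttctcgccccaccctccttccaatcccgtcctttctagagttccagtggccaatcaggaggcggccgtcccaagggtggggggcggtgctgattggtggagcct

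The Pex11a window held TGGGTCA on the opposite strand, 127 bases before the start, and the Pex11g window held AGGTCA 173 bases before its start. Scp2 held TAGGTCA 110 bases before the start and Cat held AGGTCA 204 bases before it. AGGTCA stood in 3 of the 23 member windows (13%), against 15.8% of 27025 genes with a window. TAGGTCA stood in 1 (4.35%), against 2.55% of all genes, and TGGGTCA in 1 (4.35%), against 3.73% of all genes. The direct repeat AGGTCANAGGTCA stood in 0 of 23 member windows and in 0.0407% of all genes. These matches describe letters and are not shown to be bound.

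Of the 3 genes whose proteins place other proteins in the peroxisomal membrane, 1 fell in liver and none passed the threshold in WAT. Pex3, the anchor to which newly made membrane proteins are brought, has its probe on chromosome 10 from 13225011 to 13225070 of mm7. It stood in liver at 1.48, 1.09, 1.32, 1.61 and 1.36 on staggerer liver arrays, against 1.71, 1.96, 1.88, 1.96 and 1.74 on WT liver arrays. All 5 staggerer liver arrays lay below all 5 WT liver arrays, and the difference was -0.48 (SE 0.11, adjusted p = 0.0187). In WAT the level was 1.65, 1.59, 1.47, 1.22 and 1.39 on staggerer WAT arrays, against 1.11, 0.56, 1.16, 1.18 and 1.18 on WT WAT arrays. All staggerer WAT arrays lay above all WT WAT arrays, WT replicate 2 was far below the others, and the difference of 0.42 (SE 0.14, adjusted p = 0.0567) did not pass the threshold. Pex16, which recruits Pex3 to membranes, differed by -0.33 (SE 0.10, adjusted p = 0.0538) in liver and 0.02 (SE 0.21, adjusted p = 0.966) in WAT. Pex19, the carrier that brings membrane proteins to Pex3, differed by -0.32 (SE 0.12, adjusted p = 0.0904) in liver and 0.17 (SE 0.12, adjusted p = 0.332) in WAT.

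Among the genes of matrix protein import, Pex6 and Pex26 rose in WAT. Pex6 is an ATPase that helps pull the import receptor back out of the membrane, and Pex26 anchors it there. The level of Pex6 in WAT, from a probe on chromosome 17 at 44854078 to 44854137 of mm7, was 2.26, 2.27, 2.37, 2.30 and 2.33 on staggerer WAT arrays, against 1.75, 1.44, 1.75, 1.55 and 1.48 on WT WAT arrays. All 5 staggerer WAT arrays lay within a narrow band above all 5 WT WAT arrays, and the difference was 0.71 (SE 0.09, adjusted p = 0.0011), a 1.64-fold rise. In liver Pex6 stood at 3.97, 3.71, 3.87, 3.96 and 4.01 on staggerer liver arrays, against 3.86, 3.45, 3.81, 3.81 and 3.90 on WT liver arrays. The liver groups overlapped and the difference was 0.14 (SE 0.10, adjusted p = 0.366). Pex26 in WAT had levels of -0.33, -0.13, -0.38, -0.43 and -0.38 on staggerer WAT arrays, against -0.74, -1.0, -0.60, -0.59 and -0.64 on WT WAT arrays. The difference in WAT was 0.38 (SE 0.11, adjusted p = 0.0265), and in liver it was 0.21 (SE 0.13, adjusted p = 0.279). The WAT call of Pex26 was kept in 7 of the 10 fits that left out 1 WAT array.

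The receptors Pex5 and Pex7, which bind the targeting signals of enzymes, the docking proteins Pex13 and Pex14, and the ubiquitin ligase Pex10 did not pass the threshold in either tissue. Their differences ran from -0.21 to -0.05 in liver and from 0.12 to 0.44 in WAT. A further Pex13 probe, not the brightest of its 3, rose in WAT by 0.89 (SE 0.11, adjusted p = 0.00104 over all probes), where the brightest differed by 0.13 (SE 0.12, adjusted p = 0.466).

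The probe named Pex2 in the scanner files belongs, per its accession in RefSeq, to Pex5l. In mouse, Pex5l codes for a protein of neurons that resembles the receptor Pex5 and controls the traffic of ion channels. It was the member that fell in WAT, at -4.01, -4.36, -4.44, -3.88 and -4.14 on staggerer WAT arrays, against -2.81, -0.77, -3.52, -2.80 and -3.41 on WT WAT arrays. All staggerer WAT arrays lay below all WT WAT arrays, and WT replicate 2 stood far above the other WT arrays. The difference was -1.5 (SE 0.46, adjusted p = 0.0378), and without WT replicate 2 it was -1.03 (adjusted p = 0.00624). This call was kept in 4 of the 10 fits that left out 1 WAT array. Over 26 alternative fits the difference ran from -2.22 to -0.31. The gene that RefSeq calls Pex2, a ubiquitin ligase of import, is Pxmp3 in the files and was among the further peroxisomal genes described later.

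**Figure D2:**
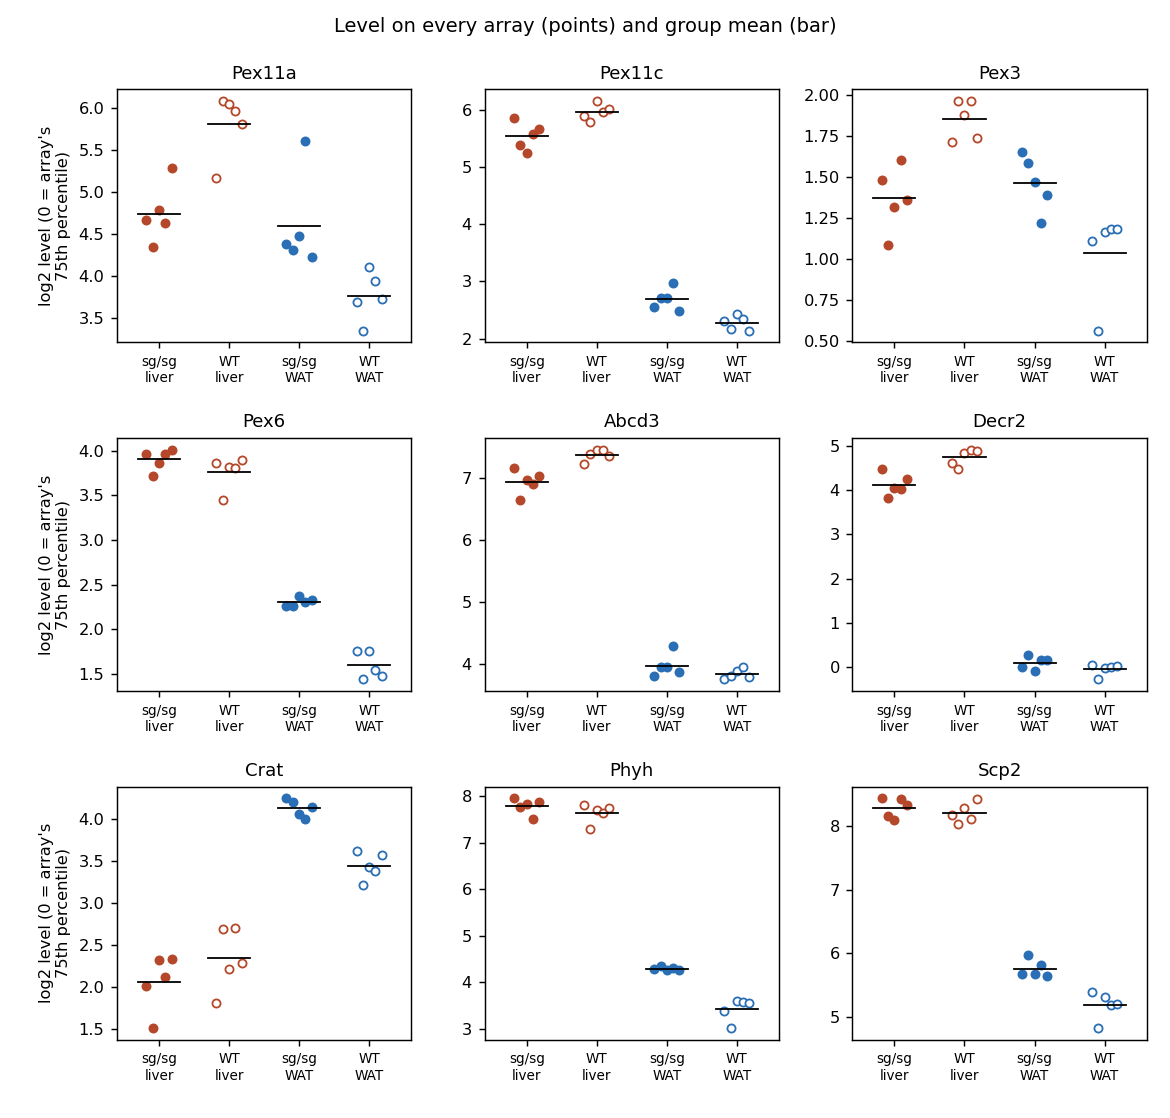
Log2 level on each of the 20 arrays (points) and the group mean (bar) for 9 genes, with staggerer mice as filled points left of WT mice as open points, liver in red and WAT in blue, and 0 at the array's 75th percentile. Pex11a, Pex11c and Pex3 are lower in staggerer than in WT liver and higher in staggerer than in WT WAT, and 1 staggerer WAT array stands apart for Pex11a.

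Of the 4 transporters, Abcd3 fell in liver and none passed the threshold in WAT. Abcd3 brings branched and dicarboxylic acyl-CoAs and bile acid intermediates into the peroxisome. In liver its level was 7.16, 6.64, 6.95, 6.90 and 7.02 on staggerer liver arrays, against 7.22, 7.37, 7.45, 7.44 and 7.34 on WT liver arrays. All staggerer liver arrays lay below all WT liver arrays, and the difference was -0.43 (SE 0.10, adjusted p = 0.0225). In WAT Abcd3 stood at 3.81, 3.96, 3.95, 4.29 and 3.88 on staggerer WAT arrays, against 3.76, 3.81, 3.90, 3.96 and 3.80 on WT WAT arrays, with a difference of 0.13 (SE 0.11, adjusted p = 0.4). Its 2 other probes differed in liver by -0.28 and -0.34, neither past the threshold, and in WAT by -0.11 and -0.09.

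Abcd2, which carries very long chain acyl-CoAs, had its brighter liver probe at -4.04, -4.93, -4.15, -4.23 and -5.06 on staggerer liver arrays, against -4.94, -2.90, -3.27, -2.67 and -2.68 on WT liver arrays. This probe was well above background on 3 staggerer liver arrays and all 5 WT liver arrays, and WT replicate 1 was as low as the lowest staggerer arrays. The difference was -1.19 (SE 0.42, adjusted p = 0.0771). The second probe fell in liver by 1.32 (SE 0.32, adjusted p = 0.0253 over all probes), so the 2 probes agreed in sign and lay on opposite sides of the threshold. In WAT the brighter probe there stood at 2.13, 1.83, 1.83, 0.75 and 1.80 on staggerer WAT arrays, against 1.29, 0.47, 1.57, 1.43 and 1.38 on WT WAT arrays, with a difference of 0.44 (SE 0.28, adjusted p = 0.297). Abcd4, a family member found in lysosomes, differed by -0.28 (SE 0.10, adjusted p = 0.0846) in liver and -0.15 (SE 0.14, adjusted p = 0.485) in WAT. Slc25a17, the carrier of coenzyme A and other cofactors, differed by 0.02 (SE 0.09, adjusted p = 0.887) in liver and 0.30 (SE 0.15, adjusted p = 0.195) in WAT.

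Of the 8 genes of beta-oxidation and its helpers, Decr2 and Acox3 fell in liver, and Crat, Scp2 and Amacr rose in WAT. Decr2, a reductase needed to break down polyunsaturated chains, stood in liver at 4.48, 3.84, 4.05, 4.02 and 4.26 on staggerer liver arrays, against 4.61, 4.48, 4.86, 4.92 and 4.89 on WT liver arrays. Staggerer replicate 1 and WT replicate 2 met at the border of the groups, and the difference was -0.62 (SE 0.14, adjusted p = 0.0185), a 1.54-fold fall. In WAT Decr2 stood at -0.01, 0.26, -0.09, 0.16 and 0.15 on staggerer WAT arrays, against 0.03, -0.29, -0.02, -0.01 and 0.02 on WT WAT arrays, with a difference of 0.15 (SE 0.10, adjusted p = 0.345). Acox3, an oxidase of branched chains, stood in liver at 1.22, 0.98, 1.08, 0.92 and 1.16 on staggerer liver arrays, against 1.41, 1.47, 1.65, 1.43 and 1.28 on WT liver arrays. All staggerer liver arrays lay below all WT liver arrays, and the difference was -0.38 (SE 0.09, adjusted p = 0.0239). In WAT Acox3 differed by -0.19 (SE 0.10, adjusted p = 0.18).

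Crat joins acetyl groups from shortened chains to carnitine for export, and its probe lies on chromosome 2 from 30409475 to 30409534 of mm7. In WAT it stood at 4.25, 4.20, 4.06, 4.0 and 4.15 on staggerer WAT arrays, against 3.62, 3.21, 3.43, 3.38 and 3.57 on WT WAT arrays. All staggerer WAT arrays lay above all WT WAT arrays, and the difference was 0.68 (SE 0.10, adjusted p = 0.00176), a 1.61-fold rise. In liver it stood at 2.01, 1.51, 2.33, 2.12 and 2.34 on staggerer liver arrays, against 1.81, 2.69, 2.22, 2.70 and 2.29 on WT liver arrays. The liver groups overlapped, with a difference of -0.28 (SE 0.20, adjusted p = 0.357).

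Scp2 codes for a thiolase that cleaves branched chains and for a lipid carrier made from the same gene. It stood in WAT at 5.67, 5.97, 5.67, 5.81 and 5.63 on staggerer WAT arrays, against 5.39, 4.81, 5.31, 5.18 and 5.20 on WT WAT arrays. All staggerer WAT arrays lay above all WT WAT arrays, and the difference was 0.57 (SE 0.12, adjusted p = 0.00954). In liver Scp2 stood at 8.44, 8.15, 8.09, 8.43 and 8.34 on staggerer liver arrays, against 8.18, 8.03, 8.29, 8.12 and 8.43 on WT liver arrays, with a difference of 0.08 (SE 0.10, adjusted p = 0.605). Amacr, the racemase that turns branched chains and bile acid intermediates into the form that can be oxidised, stood in WAT at 1.57, 1.66, 1.67, 1.61 and 1.62 on staggerer WAT arrays, against 1.34, 1.20, 1.47, 1.33 and 1.01 on WT WAT arrays. The difference was 0.36 (SE 0.10, adjusted p = 0.0265) in WAT and 0.14 (SE 0.10, adjusted p = 0.352) in liver. The WAT call of Amacr was kept in 5 of the 10 fits that left out 1 WAT array. The other 3 genes did not pass the threshold in either tissue. Acox2, the oxidase of bile acid intermediates, differed by 0.13 (SE 0.11, adjusted p = 0.454) in liver and 0.85 (SE 0.42, adjusted p = 0.176) in WAT. Hsd17b4, the enzyme of the next 2 steps, differed by -0.20 (SE 0.10, adjusted p = 0.196) in liver and 0.10 (SE 0.10, adjusted p = 0.519) in WAT. Pecr, an enoyl-CoA reductase, differed by 0.02 (SE 0.09, adjusted p = 0.89) in liver and 0.34 (SE 0.13, adjusted p = 0.0825) in WAT.

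Alpha-oxidation removes 1 carbon from chains whose methyl branch blocks beta-oxidation, such as phytanic acid from the diet. Phyh, which hydroxylates phytanoyl-CoA, had the largest rise of the 33 genes in WAT. Its probe lies on chromosome 2 from 4855856 to 4855916 of mm7, and its WAT level was 4.28, 4.36, 4.28, 4.32 and 4.26 on staggerer WAT arrays, against 3.39, 3.02, 3.59, 3.58 and 3.56 on WT WAT arrays. Staggerer values lay close together and all above the WT values, and the difference was 0.87 (SE 0.12, adjusted p = 0.0013), a 1.83-fold rise. In liver Phyh stood at 7.95, 7.77, 7.82, 7.51 and 7.88 on staggerer liver arrays, against 7.80, 7.29, 7.71, 7.64 and 7.75 on WT liver arrays. The liver groups overlapped, with a difference of 0.15 (SE 0.12, adjusted p = 0.407). Hacl1, the lyase of the next step, differed by -0.17 (SE 0.25, adjusted p = 0.669) in liver and 0.17 (SE 0.16, adjusted p = 0.499) in WAT.

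Ether lipid synthesis held the member that rose in liver. Agps, which puts the ether bond into plasmalogen precursors, stood in liver at 0.56, 0.69, 0.66, 0.95 and 0.82 on staggerer liver arrays, against 0.28, 0.43, 0.38, 0.31 and 0.52 on WT liver arrays. All staggerer liver arrays lay above all WT liver arrays. The difference was 0.35 (SE 0.09, adjusted p = 0.0283), called in 6 of the 10 fits that left out 1 liver array. In WAT it stood at 1.01, 1.04, 1.02, 1.42 and 1.08 on staggerer WAT arrays, against 1.53, 1.28, 1.22, 1.15 and 1.19 on WT WAT arrays, with a difference of -0.16 (SE 0.11, adjusted p = 0.344). A second Agps probe differed by 0.33 in liver and fell by 0.51 in WAT (adjusted p = 0.0347 over all probes). Gnpat, which catalyses the step before Agps, differed by -0.04 (SE 0.07, adjusted p = 0.721) in liver and 0.36 (SE 0.16, adjusted p = 0.126) in WAT. Cat, the catalase that breaks down the hydrogen peroxide made by the oxidases, differed by -0.03 (SE 0.14, adjusted p = 0.9) in liver and 0.19 (SE 0.14, adjusted p = 0.391) in WAT.

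Over all probes of the 33 genes, 52 of 54 passed the filter in each tissue. In liver 11 of the 52 fell and 2 rose, 25% in all, where 14.6% of the 24675 probes tested were called, and 36 differences were negative and 16 positive. In WAT 11 rose and 2 fell, also 25%, where 21.9% of 32315 probes were called, and 41 were positive and 11 negative. Probes of 1 gene share its RNA and are not separate evidence.

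The genotype effect was then set between the tissues, as the WAT difference minus the liver difference in a fit of all 20 arrays. This difference passed the threshold for 12 of the 33 genes (36.4%), above 0 for 11 and below 0 for 1, where 17.5% of 22490 genes passed, 8.85% above 0 and 8.6% below. By sign it was positive for 31 of the 33, with a median of 0.35 against 0.02 over all genes tested. Since both tissue comparisons enter it, and since they share the choice of genes, these counts repeat the 2 comparisons and are no further support for them. The largest was Pex11a, at 1.91 (SE 0.35, adjusted p = 0.0011). Pex3 differed by 0.90 (SE 0.18, adjusted p = 0.00209) between the tissues although its WAT difference alone did not pass the threshold, and Pex11c by 0.82 (SE 0.17, adjusted p = 0.00258). Decr2 differed by 0.77 (SE 0.17, adjusted p = 0.0052), Phyh by 0.72 (SE 0.17, adjusted p = 0.00638) and Pex6 by 0.58 (SE 0.13, adjusted p = 0.00665). Crat, at 0.97 (SE 0.24, adjusted p = 0.00898), Abcd2, at 1.76 (SE 0.45, adjusted p = 0.0118), Abcd3, at 0.56 (SE 0.14, adjusted p = 0.012), and Scp2, at 0.49 (SE 0.16, adjusted p = 0.0457), were also above 0, and the call of Scp2 was kept in 6 of the 20 fits that left out 1 array. For Abcd2 this fit used the second liver probe, not the one that differed by -1.19 in liver. It was well above background on 3 of the 5 staggerer liver arrays. Agps was the one below 0, at -0.51 (SE 0.14, adjusted p = 0.0193).

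In WT mice most of the 33 genes were measured at a higher level in liver than in WAT. Of the 33, 25 were higher in WT liver than in WT WAT and 6 lower, 93.9% in all, where 75.8% of 22490 genes differed, 42% higher and 33.8% lower. The median difference, WT liver minus WT WAT, was 1.30 over the members and 0.18 over all genes. Acox2 had the widest gap, with a mean of 5.03 in WT liver and -5.95 in WT WAT, a difference of 10.99 (SE 0.32). Its signal was dim in WT WAT, from -6.62 to -4.25 over the 5 arrays, though well above background on each. Amacr differed by 5.08, Pecr by 4.94, Decr2 by 4.81, Hacl1 by 4.53 and Phyh by 4.21. The 6 that were lower in liver were Abcd2, at -4.51, Gnpat, at -1.38, Crat, at -1.10, Agps, at -0.89, Acox3, at -0.52, and Abcd4, at -0.30, so both ether lipid genes were among them. The call of Abcd4 was kept in 15 of the 20 fits that left out 1 array, and over 30 alternative fits its difference ran from -0.36 to -0.12. Pex13 and Pex5l did not pass the threshold. Tissue and slide cannot be told apart here.

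The gap between the tissues was also described in staggerer mice. For Pex11a it was 0.14 in staggerer mice, from means of 4.74 in staggerer liver and 4.60 in staggerer WAT, against 2.05 in WT mice, from means of 5.81 in WT liver and 3.76 in WT WAT. For Pex3 it was -0.09 in staggerer mice and 0.81 in WT mice. For Pex11c it was 2.86 in staggerer mice and 3.69 in WT mice, and for Phyh 3.49 in staggerer mice and 4.21 in WT mice. The gap was smaller in size in staggerer mice for 27 of the 33 genes. The staggerer gap is the WT gap less the difference of genotype effects given above, so this count repeats those results. The same count was not made over all genes. Abcd2 and Crat, which were higher in WAT, were among the 6 with a wider gap, at -6.26 in staggerer mice and -4.51 in WT mice for Abcd2 and at -2.07 in staggerer mice and -1.10 in WT mice for Crat. The Abcd2 probe was dim in staggerer liver, with a mean of -4.60, and well above background on 3 of the 5 arrays there.

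**Figure D3:**
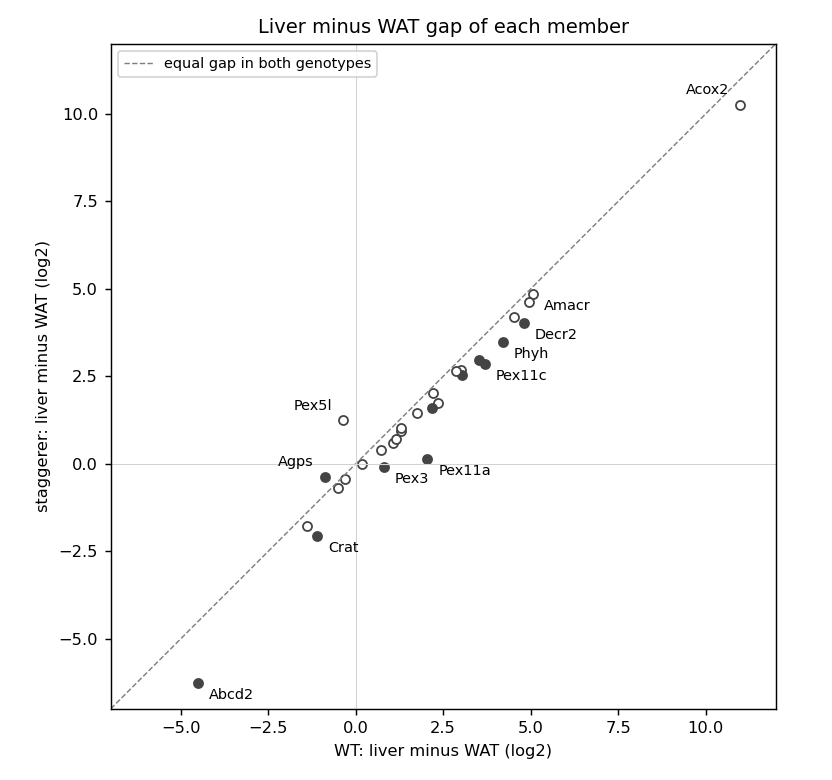
Liver minus WAT level of 30 of the 33 genes, as the staggerer mean difference (vertical axis, log2) against the WT mean difference (horizontal axis, log2), with a dashed line where both genotypes have the same gap. Filled points are the 11 genes drawn whose genotype effect differed between tissues; Pex11a lies near 0 on the staggerer axis and at 2.05 on the WT axis.

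Liver genotype was largely tied to slide, since 4 of the 5 WT liver arrays were on a slide with no staggerer array and 2 staggerer arrays were on a slide with no WT array. With slide as a fixed block no member was called in liver, where limma called 2 of all 17290 genes, and at an unadjusted p under 0.05 it passed 5 members and 1453 genes. Slide 2 alone held both genotypes, so that estimate is the difference on slide 2, between 3 staggerer arrays and 1 WT array. All 8 called liver members kept their sign in it. Pex11a differed there by -1.22 and Agps by 0.12. With slide as a random block 6 members were called in liver, where 1751 of all 17290 genes were called.

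Each WAT slide held both genotypes. With slide as a fixed block 6 of the 33 members were called in WAT, where 4713 of all 22286 genes tested were called. With slide as a random block 9 members were called, where 5399 of all 22286 genes were. The share of the members was below that of all genes with the fixed block and above it with the random block. On each of the 3 slides alone the 9 called members kept their sign. On slide 4 none of them passed the threshold, where 0 of all 22286 genes tested did. Slide 4 held 2 staggerer and 2 WT arrays, slide 5 held 2 staggerer arrays and 1 WT array, and slide 6 held 1 staggerer array and 2 WT arrays, so on slides 5 and 6 the lone array is assumed to vary like the other group. At an unadjusted limma p under 0.05 there were 3 of the 33 members on slide 4, where 3660 of all 22286 genes passed. The share of the members was below that of all genes there. Counts are not given for slides 5 and 6, where 1 group held a single array. Pex6 differed by 0.53 on slide 4, 0.87 on slide 5 and 0.77 on slide 6, and Phyh by 0.85 on slide 4, 0.71 on slide 5 and 0.98 on slide 6. Pex11a differed by 1.06 on slide 4, 0.62 on slide 5 and 0.74 on slide 6.

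**Figure D4:**
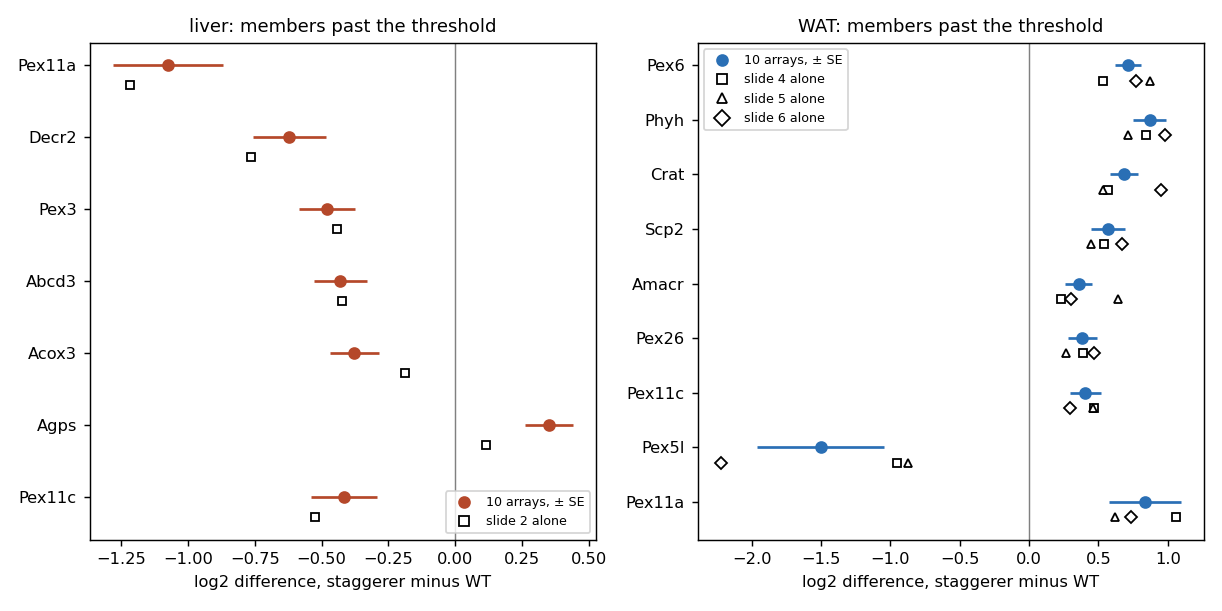
Log2 difference, staggerer minus WT, of 7 members called in liver (left) and of the 9 called in WAT (right), from all 10 arrays (filled points with SE) and from single slides that held both genotypes (open symbols). All open symbols lie on the same side of 0 as the filled point of their gene.

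Further genes of the organelle, from a list drawn up by function, were counted in the same fits. Of 48 measured in liver 8 fell and 0 rose, and of 49 measured in WAT 9 rose and 0 fell, with medians of -0.16 in liver and 0.16 in WAT. The called share was 16.7% in liver, against 16.3% of all genes there, and 18.4% in WAT, against 23.8% of all genes there, and the medians over all genes were 0.05 in liver and 0.09 in WAT. The 8 liver calls became 3 without WT replicate 2, 3 or 4, 5 without staggerer replicate 2, 4 without staggerer replicate 3 and 0 with slide as a fixed block (8 at an unadjusted p under 0.05), and the 9 WAT calls became 15 without staggerer replicate 4. The share of all genes called is not given for the fits with an array left out. In liver Acot4 and Acot3, thioesterases that release fatty acids from CoA, fell by 1.37 (SE 0.23, adjusted p = 0.00882) and 3.48 (SE 0.59, adjusted p = 0.00936). Ehhadh, the bifunctional enzyme of beta-oxidation, averaged 3.80 ± 0.28 in staggerer liver and 4.58 ± 0.25 in WT liver (SD, n = 5 each), a difference of -0.78 (SE 0.16, adjusted p = 0.0155). Acaa1b, a thiolase of the last step, averaged 6.89 ± 0.43 in staggerer liver and 7.76 ± 0.33 in WT liver (SD, n = 5 each), a difference of -0.87 (SE 0.22, adjusted p = 0.0267). Nudt12, a pyrophosphatase, differed by -0.52 (SE 0.13, adjusted p = 0.0256), and Dhrs4, a reductase, by -0.39 (SE 0.10, adjusted p = 0.029). Pex2 also fell in liver.

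In WAT Acot4 rose, with means of -0.84 ± 0.12 in staggerer WAT and -2.18 ± 0.18 in WT WAT (SD, n = 5 each) and a difference of 1.34 (SE 0.11, adjusted p = 0.000221). Pxmp2, a channel protein of the peroxisomal membrane, averaged 3.13 ± 0.23 in staggerer WAT and 1.86 ± 0.72 in WT WAT (SD, n = 5 each), a difference of 1.27 (SE 0.31, adjusted p = 0.0156). Ddo, the oxidase of acidic D-amino acids, rose by 1.11 (SE 0.24, adjusted p = 0.0086), and Sod1, a superoxide dismutase found mainly in the cytosol, by 0.56 (SE 0.11, adjusted p = 0.00587). Mlycd, malonyl-CoA decarboxylase, rose by 0.42 (SE 0.09, adjusted p = 0.00943) and Eci2, an isomerase for unsaturated chains, by 0.35 (SE 0.08, adjusted p = 0.0138). Ech1 and Paox also rose. Acot4 fell in liver and rose in WAT.

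The receptors known to act on these genes were measured on the same arrays. Ppara averaged 4.06 ± 0.16 in staggerer liver and 4.71 ± 0.24 in WT liver (SD, n = 5 each), and fell by 0.65 (SE 0.12, adjusted p = 0.0128). In WAT it averaged -1.02 ± 0.22 in staggerer WAT and -1.75 ± 0.17 in WT WAT (SD, n = 5 each), and rose by 0.73 (SE 0.13, adjusted p = 0.00371). The WAT effect minus the liver effect was 1.38 (SE 0.18, adjusted p = 9.92e-05) for Ppara. Pparg, the receptor that drives fat cell formation, differed by -0.89 (SE 0.30, adjusted p = 0.0654) in liver and 0.86 (SE 0.15, adjusted p = 0.00302) in WAT. Ppargc1a, a coactivator, differed by 1.58 (SE 0.20, adjusted p = 0.00105) in WAT and did not pass the threshold in liver (adjusted p = 0.99). Rxra, the partner of the PPARs, did not pass the threshold in either tissue. Whether these receptors have a part in the changes of the peroxisomal genes was not tested.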

How the data were processed

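The deposited intensity of each spot was made by the authors with Agilent Feature Extraction 9.5, per the file headers, which subtracts background and fills in dim spots. No scaling between arrays is recorded there, and the deposited value table held the same intensities (largest relative difference 0). From these intensities, log2 minus the array's 75th percentile was computed, control spots were left out, outlier spots set missing and spots of a probe averaged. A probe was kept when well above background on 4 or more of a tissue's 10 arrays and missing on at most 2 (4 of 20 in the joint fit), and a gene was represented by its kept probe with the highest mean. Tests were two-sided, with lmFit and eBayes of limma 3.58.1 in R 4.3.3, Benjamini-Hochberg adjusted over all genes, or over all probes where stated. Labels gave groups and replicate numbers. They name the 5 arrays of a group as separate samples, and the number of arrays limits the precision. The files name 22951 probes through RefSeq accessions, and the others keep the name in the scanner files. No annotation of build mm7 was used, so the exon that a probe matches is not given. The members and lists were chosen with earlier results of these data known. Values on every array are given for members called in a tissue and for 6 members with the smallest p between the tissues, and a few genes that this rule takes are not reported here by name, though they stand in the counts and medians.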

Additional observations from a re-analysis of the deposited data

Results flagged for a closer look

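Pex11a stood at 5.6 on the array of staggerer WAT replicate 4, set apart from the other 4 staggerer WAT arrays by a gap that was 0.817 of the group's range. Pex5l stood at -0.77 on the array of WT WAT replicate 2, with a gap of 0.737 of the group's range. Of the 34 groups of arrays looked at, these 2 had such an array, and chance alone gives about 1 in 20.

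The genotype effect in WAT minus that in liver differed from 0 for 12 members. Among them it was 1.91 for Pex11a, 0.90 for Pex3, 0.82 for Pex11c, 0.77 for Decr2, 0.72 for Phyh, 0.58 for Pex6, 0.97 for Crat, 1.76 for Abcd2, 0.56 for Abcd3 and 0.49 for Scp2, and -0.51 for Agps, with adjusted p-values in limma between 0.0011 for Pex11a and 0.0457 for Scp2.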

How the results depend on the processing

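Over the 2341 values of 85 results under the alternatives, 0 changed sign past a threshold, 254 lost their call and 5 gained one. In liver the 8 member calls became 2 with no filter on dim probes and 2 with the replicate block, where 1440 of all 17290 genes were called. They became 0 with slide as a fixed block, where 2 of all 17290 genes were called. Leaving out 1 array gave 1 to 8. In WAT the 9 calls became 0 with normexp, 5 when scaled to the median and 4 with the replicate block, where 3428 of all 22286 genes were called. Within slide 4 they became 0, where 0 of all 22286 genes were called, so that count says nothing of the members. Counts are not given for slides 2, 5 and 6, where 1 group held a single array. The WAT calls became 15 without both arrays that stood apart, staggerer replicate 4 and WT replicate 2, chosen after seeing the data. Leaving out 1 array gave 4 to 15. Between tissues the 12 calls became 6 with normexp and 11 with the replicate block, and 11 to 14 with 1 array left out. The replicate numbers were not found to pair samples: the deviations of same-numbered arrays correlated above 0.1 for 1 of 5 pairs of WT liver with WT WAT and for 0 of 5 in each of the other 3 sets of pairs. Calls between WT liver and WT WAT ran from 30 to 31 of 33 with 1 array left out. Of the further peroxisomal genes, the 8 liver calls became 3 with no filter, 13 with normexp, 3 with the replicate block, 13 when scaled to the median, 0 with slide as a fixed block, and 3 to 10 with 1 array left out. The 9 WAT calls became 3 with normexp, 5 when scaled to the median, 0 within slide 4, 14 without both arrays that stood apart, and 7 to 15 with 1 array left out. Except where stated, the share of all genes called is not given beside these counts. Scaling to the median moved the median of all genes in liver from 0.05 to -0.06 and that between tissues from 0.02 to 0.13. The cause of these moves was not tested, except that a single slide holds 3 or 4 arrays. Pex11a, Pex11c, Pex3 and Decr2 were called between tissues under all 31 alternatives. Pex11c in liver was called in 1 of 10 fits that left out 1 array, and Pex11a in WAT in 3. Depth has no count here: signal over background limits dim probes such as Abcd2 in liver.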
